A study of Mus musculus with 6 samples.

Results

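Hox genes encode the homeodomain transcription factors that give cells along the head-to-tail axis of the embryo their positional identity. In the mouse they lie in 4 clusters, *Hoxa* to *Hoxd*, which arose by duplication of a single ancestral cluster, and genes of the same number in different clusters are paralogues. Within a cluster, genes at the 3′ end (low numbers) are switched on first and farthest forward, in the hindbrain, and genes at the 5′ end (high numbers) later and only toward the tail, a property called collinearity. Their transcription is started by WNT, FGF and retinoic acid signals and CDX factors in the caudal embryo, it is kept on by trithorax and kept off by Polycomb proteins, and HOX proteins bind DNA together with the TALE homeodomain proteins PBX and MEIS.

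The Hox genes were taken from the table by symbol, as every gene named Hoxa, Hoxb, Hoxc or Hoxd with a number. This found 37 of 20280 genes, with 11 members in *Hoxa*, 10 in *Hoxb*, 8 in *Hoxc* and 8 in *Hoxd*. The mouse has 39 Hox genes, and *Hoxc12* and *Hoxd12* were not analysed here. The study asked whether developmental genes depend on TIP55, a splice isoform of the KAT5 histone acetyltransferase. It compared 3 RNA-seq libraries of Tip55+/+ with 3 of Tip55Δ/Δ embryos (wild type and Tip55 knockout), all on the inbred FVB/N background and at embryonic day 8.5, when morphology was still normal, from intercrosses of heterozygotes. The Tip55Δ/Δ allele joins exons 11 to 14 of *Kat5* in the germ line, so that the introns between them are lost and the other *Kat5* isoforms can still be made, and Tip55+/+ embryos carry no targeted allele. The sources used here do not say if embryos were pooled for a library.

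The deposited table gives no value per library. Each level below is the mean normalized count of a genotype over its 3 libraries, and each ratio is the Tip55Δ/Δ mean over the Tip55+/+ mean with its 95% counting interval. The spread between replicates could not be measured, so no difference was tested and no p-value is given. An interval that excludes 1 says that a ratio lies outside counting error, not outside the variation between embryos. The libraries were made from whole embryos, in which fewer cells of a type and less RNA per cell cannot be told apart, and they were not strand specific. *Kat5* itself, which lies on the minus strand of chromosome 19 (5603014 to 5610237), averaged 2218 normalized counts in Tip55+/+ and 1615 in Tip55Δ/Δ, a ratio of 0.728 (0.701 to 0.756). This sums all *Kat5* transcripts and gives no level of the Tip55 isoform.

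On GRCm38 (mm10), with GENCODE vM21 genes, the *Hoxa* members lie on chromosome 6 and the *Hoxb* members span chromosome 11 from 96194316 to 96368256. The *Hoxc* members span chromosome 15 from 102921103 to 103036852 and the *Hoxd* members chromosome 2 from 74668310 to 74765142. RefSeq promoter sequences on GRCm38.p6 were matched for 21 of the 37 members. Among them were *Hoxb1* and *Hoxd1*, which lay above a ratio of 1, and *Hoxa5*, which lay below it. Their 250 bases before the transcription start are shown so that the sequence stands beside the levels that follow, with any found HOX-PBX motif in capitals.
Hoxb1, chr11:96365508-96365757, plus strand: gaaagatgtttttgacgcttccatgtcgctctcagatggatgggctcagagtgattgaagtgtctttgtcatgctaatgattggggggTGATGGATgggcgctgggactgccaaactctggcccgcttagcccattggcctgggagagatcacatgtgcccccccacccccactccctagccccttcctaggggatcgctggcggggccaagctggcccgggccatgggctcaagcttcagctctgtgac
Hoxd1, chr2:74762730-74762979, plus strand: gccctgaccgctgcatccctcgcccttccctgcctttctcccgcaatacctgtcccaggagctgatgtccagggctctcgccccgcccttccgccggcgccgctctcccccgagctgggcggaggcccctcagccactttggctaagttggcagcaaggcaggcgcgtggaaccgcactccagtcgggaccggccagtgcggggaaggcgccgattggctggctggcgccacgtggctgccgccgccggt
Hoxa5, chr6:52204588-52204837, minus strand: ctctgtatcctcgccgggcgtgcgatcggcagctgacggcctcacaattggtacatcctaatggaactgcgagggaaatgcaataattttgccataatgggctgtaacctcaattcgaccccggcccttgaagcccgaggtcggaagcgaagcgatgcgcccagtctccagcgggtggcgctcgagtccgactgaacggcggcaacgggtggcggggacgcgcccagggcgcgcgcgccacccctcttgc
The 3 promoters differ in base composition. The *Hoxb1* promoter has a GC content of 59.2% and 7 CG dinucleotides, that of *Hoxd1* 71.6% and 24, and that of *Hoxa5* 63.6% and 28. Over the 21 Hox promoters the median was 12 CG dinucleotides, against 6 over all 32851 promoters in the table. Both strands were searched for 4 motifs. The site bound jointly by HOX and PBX, spelled TGATNNAT, was in 14.3% of the Hox promoters and 7.68% of all promoters. The site of the CDX factors, searched as TTTATG, was in 23.8% of the Hox promoters and 10.8% of all promoters. The half-site of the retinoic acid receptors, searched as AGGTCA, was in 28.6% of the Hox promoters and 14.02% of all promoters. The TATA box, searched by its usual letters TATAAA, was in 14.3% of the Hox promoters and 12.4% of all promoters. Of the 3 promoters printed, only that of *Hoxb1* held any of the 4, a HOX-PBX match from 162 to 155 bases before the start, at 96365596 to 96365603 on chromosome 11. Matches of different motifs may overlap, and a match describes letters only.

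Hox transcripts were a small share of the recovered counts. The recovered means of the 37 members added up to 38739 normalized counts in Tip55+/+ and 38656 in Tip55Δ/Δ embryos, which is 788 and 819 of every 1000000 recovered counts. The *Hoxb* cluster held the largest share, 49.6% of Hox counts in Tip55+/+ and 47.8% in Tip55Δ/Δ. *Hoxa* held 21.2% and 22.2%, *Hoxc* 18.1% and 18.6%, and *Hoxd* 11.2% and 11.4%. The clusters as wholes differed little between genotypes, with ratios of the summed counts of 1.04 for *Hoxa*, 0.962 for *Hoxb*, 1.03 for *Hoxc* and 1.02 for *Hoxd*, and the interval of *Hoxd* held 1 (0.992 to 1.04). Per kb of the longest transcript the *Hoxb* share was 46.2% in Tip55+/+ and 44.9% in Tip55Δ/Δ.

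Levels per kb were lowest toward the 5′ end of each cluster, the end expressed nearest the tail. In Tip55+/+ embryos *Hoxb9* was the highest of all, at 2265 normalized counts per kb. It was followed by *Hoxb1* at 1228, *Hoxc8* at 1191 and *Hoxb8* at 1121, and the counting intervals of *Hoxb1* and *Hoxc8* overlapped. *Hoxb3*, *Hoxc4*, *Hoxc6* and *Hoxb2* were between 742 and 911 per kb. The posterior genes were far lower. *Hoxc10* and *Hoxa10* had 143 and 107 per kb in Tip55+/+, *Hoxa11* 81.0, *Hoxd13* 40.7, *Hoxd10* 29.6, *Hoxa13* 16.6 and *Hoxd11* 12.7. The lowest were *Hoxc11* at 4.65, *Hoxc13* at 2.76 and *Hoxb13* at 0.260. *Hoxa6*, at 34.6 per kb, was the only member below paralogue 10 with under 100 per kb. Of the 36 pairs of neighbours in this order, 15 had overlapping counting intervals and were not distinguishable at this depth.

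The order was similar in Tip55Δ/Δ embryos, with *Hoxb9* still first (2060 per kb). Of the 37 members, 6 moved by 3 places or more and none by more than 5. *Hoxa5* moved down from place 16 to 21 and *Hoxc10* from 26 to 29, while *Hoxd1* moved up from 13 to 9. Length matters for some of these levels. When all annotated exons were used in place of the longest transcript, 6 members moved by 3 places or more, and *Hoxa3* went from 590 to 254 per kb in Tip55+/+.

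**Figure D1:**
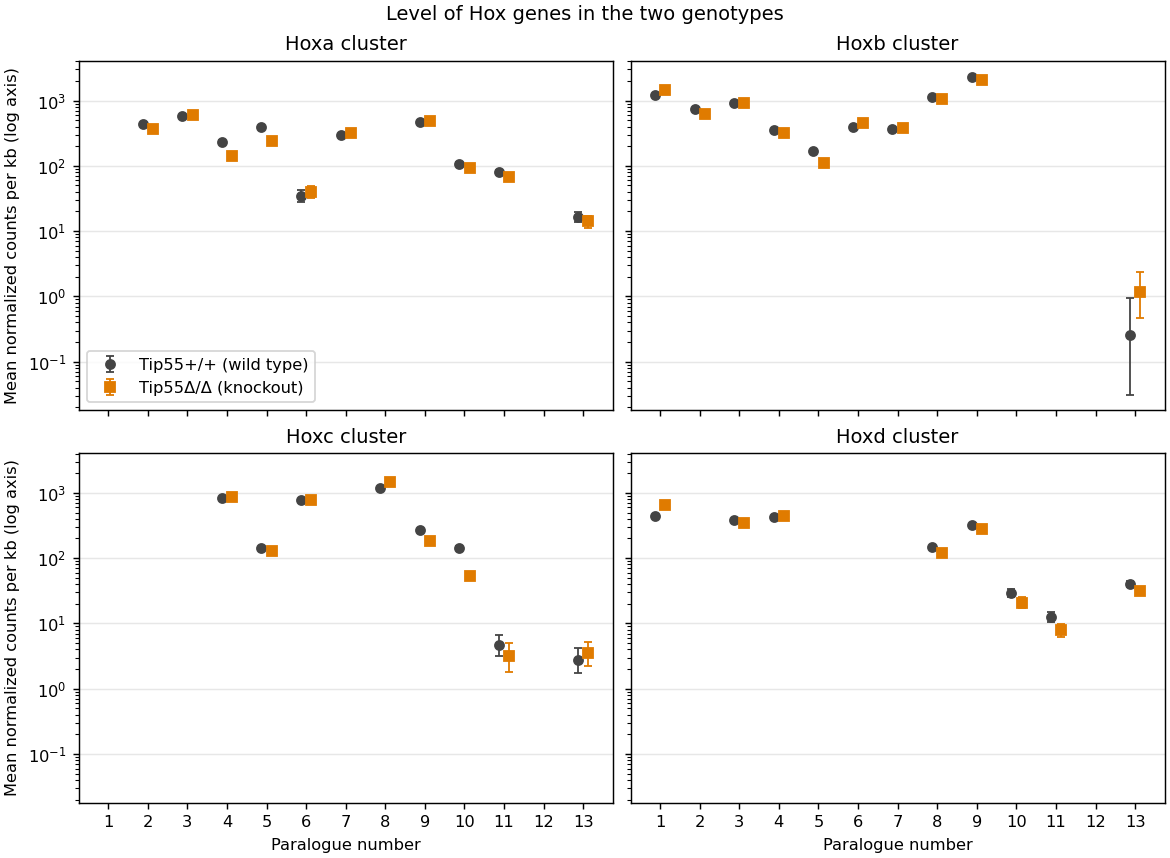
Mean normalized counts per kb of the longest transcript (log axis) against paralogue number, with a panel for each cluster, circles for Tip55+/+ and squares for Tip55Δ/Δ means over 3 libraries. Bars are 95% Poisson counting intervals, often smaller than the symbol. Levels drop beyond paralogue 9 in every cluster with such members, and *Hoxc10* had 143 per kb in Tip55+/+ against 52.9 in Tip55Δ/Δ.

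Of the 37 members, 34 averaged 10 normalized counts or more in either genotype, and *Hoxb13*, *Hoxc11* and *Hoxc13* did not. Past 1.5-fold, 5 of the 34 were lower in Tip55Δ/Δ embryos and none was higher, and with no value per library neither count has a test. With the GC trend of all genes removed, 3 were lower and 1 was higher, and with ratios centred on the median gene 5 and 1. Without these adjustments, 5.74% of all 15912 genes past the same minimum were lower and 7.55% higher past 1.5-fold. No share over all genes is given for the adjusted ratios. The 5 lower genes were *Hoxa4*, *Hoxa5*, *Hoxb5*, *Hoxc10* and *Hoxd11*, so every cluster held at least 1 and *Hoxa* 2. Outside counting error, 19 of 34 were lower and 5 higher, and the intervals of the other 10 held 1. At this depth such intervals are narrow, and 37.6% of all genes lay below and 35.3% above 1 in the same way. The median log2 ratio of the 34 genes was −0.15, with 22 below 0, against a median of −0.00 over all genes.

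**Figure D2:**
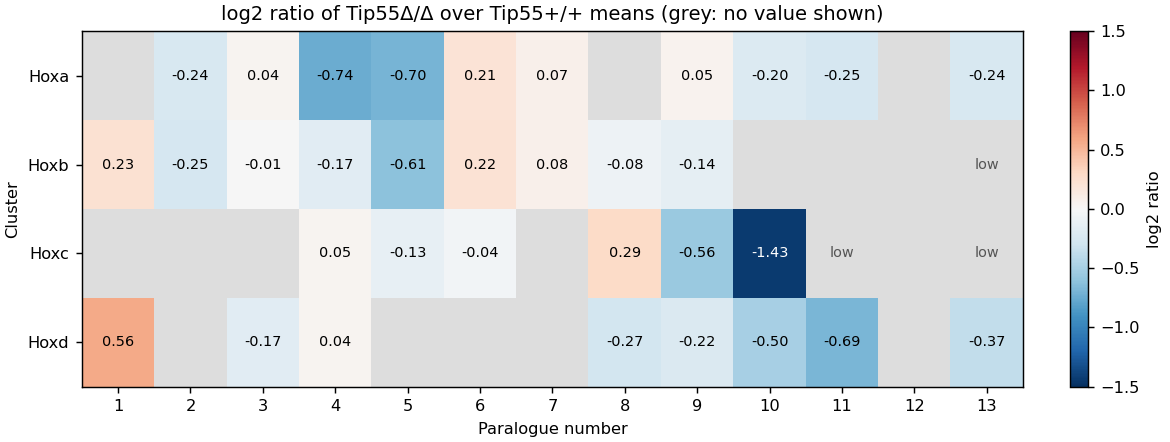
The log2 ratio of the Tip55Δ/Δ over the Tip55+/+ mean for the Hox genes described here, by cluster (rows) and paralogue number (columns), with blue below 0 and red above 0. Grey marks positions with no gene or no value shown, and "low" the 3 members under the minimum. *Hoxb1* and *Hoxd1* are above 0 (0.23 and 0.56), the columns of paralogues 5, 10, 11 and 13 are below 0, and the lowest value is −1.43 for *Hoxc10*.

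Paralogue 1 holds the first Hox genes to be switched on, and *Hoxb1* and *Hoxd1* were both higher in Tip55Δ/Δ embryos outside counting error. *Hoxb1*, which gives rhombomere 4 its identity, had 2562 normalized counts in Tip55+/+ and 2999 in Tip55Δ/Δ embryos, a ratio of 1.17 (1.14 to 1.21). *Hoxd1*, which acts in nociceptive sensory neurons later in development, had 817 and 1208, a ratio of 1.48 (1.41 to 1.56). Their intervals do not overlap, so the ratios of the 2 paralogues differed beyond counting error. *Hoxd1* lay just under the 1.5-fold threshold, and it was past it when ratios were centred on the median gene or the GC trend was removed.

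Paralogue 2, active from rhombomere 2 backward, was lower in both members. *Hoxa2*, the selector gene of the second pharyngeal arch, had 780 and 661 normalized counts, a ratio of 0.847 (0.797 to 0.900). *Hoxb2* had 2324 and 1955, a ratio of 0.841 (0.812 to 0.871). The pair therefore had nearly the same ratio at levels that differed. Beside these groups, the hindbrain markers were mixed. Of 8 such genes past the minimum, 1 was higher past 1.5-fold (*Fgf3*, 218 and 366 normalized counts, ratio 1.68), and none was lower. In the whole table, 7.55% of genes past the minimum were higher and 5.74% lower past this fold. *Egr2*, the factor of rhombomeres 3 and 5 that activates *Hoxa2* and *Hoxb2*, had 497 and 660 (ratio 1.33, 1.24 to 1.42). The summed level of the 8 markers was 12942 in Tip55+/+ and 14069 in Tip55Δ/Δ embryos. Its part in the paralogue 1 and 2 values was not tested.

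Paralogue 3, which patterns the pharyngeal arches and neck, stayed near 1. *Hoxb3* had 2907 and 2897 normalized counts, a ratio of 0.996 (0.967 to 1.03). *Hoxa3* had 1527 and 1572 (1.03, 0.988 to 1.07). *Hoxd3* had 1139 and 1011 (0.887, 0.844 to 0.932), and 9.76% of its exonic bases are shared with *Hoxd4*, *Hoxd3os1* or *Haglr*. Only *Hoxd3* of the 3 lay outside counting error.

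Paralogue 4 was uneven. *Hoxa4*, which acts in the cervical vertebrae, had 375 normalized counts in Tip55+/+ and 225 in Tip55Δ/Δ embryos, a ratio of 0.599 (0.543 to 0.660). *Hoxb4*, known also for its role in blood stem cells, had 908 and 808 (0.890, 0.843 to 0.941). *Hoxc4* (1753 and 1811, ratio 1.03) and *Hoxd4* (1100 and 1127, ratio 1.03) had intervals that held 1. The interval of *Hoxa4* lay below those of its 3 paralogues. *Hoxa4* also had the lowest level of the group per kb in Tip55+/+, 235 against 827 for *Hoxc4*. Of *Hoxd4* exonic bases, 13.2% are shared with *Hoxd3* or *Hoxd3os1*.

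Paralogue 5, expressed from the cervical region backward and needed for lung and forelimb position, was lower in all 3 members. *Hoxa5* had 725 and 447 normalized counts, a ratio of 0.616 (0.574 to 0.660). *Hoxb5* had 469 and 307, a ratio of 0.654 (0.601 to 0.712). *Hoxc5* had 416 and 381, a ratio of 0.916 (0.845 to 0.993) that barely excluded 1. The interval of *Hoxc5* did not overlap those of *Hoxa5* and *Hoxb5*, whose own intervals overlapped. The group went from 4.16% to 2.94% of Hox counts, with a ratio of 0.705 for its summed counts (0.674 to 0.737).

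The next gene along the cluster did not share this. *Hoxb6*, directly 5′ of *Hoxb5*, had 771 and 897 normalized counts, a ratio of 1.16 (1.10 to 1.23). *Hoxa6* had 30.2 and 34.9 (1.16, 0.865 to 1.54), and *Hoxc6* 1247 and 1213 (0.973, 0.929 to 1.02). Paralogues 6 and 7 mark the thoracic region. *Hoxa7* had 606 and 638 normalized counts (1.05, 0.986 to 1.12) and *Hoxb7* 471 and 498 (1.06, 0.983 to 1.14). *Hoxb6* was thus the only one of these 5 genes outside counting error. *Hoxa7* shares 20.4% of its exonic bases with the antisense gene *Hoxaas3*, which had 1112 and 1117 normalized counts, so reads of the 2 genes cannot be fully told apart.

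Paralogues 8 and 9, which act in the thoracic and lumbar regions, held the most abundant members. *Hoxc8* had 2648 and 3243 normalized counts, a ratio of 1.22 (1.19 to 1.26). *Hoxb8* had 2955 and 2805 (0.949, 0.921 to 0.978), and *Hoxd8* 386 and 320 (0.827, 0.759 to 0.902). The 3 paralogues of number 8 thus differed from each other beyond counting error. *Hoxb9*, the highest Hox gene, had 5829 and 5304 (0.910, 0.890 to 0.930). *Hoxa9* had 1516 and 1575 (1.04, 0.997 to 1.08), and *Hoxd9* 685 and 588 (0.859, 0.805 to 0.916). *Hoxc9*, which represses forelimb genes in the trunk, was the lowest of the group, with 644 and 438 normalized counts, a ratio of 0.681 (0.633 to 0.730) just under the 1.5-fold threshold. *Hoxc8* and *Hoxc9* are neighbours in the cluster and lay on opposite sides of 1.

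Paralogues 10 to 13, which pattern the lumbar, sacral and tail regions and the distal limb, were below 1 in all 7 members past the minimum. Of the 7, 6 lay outside counting error, as most genes did. Over all genes past the minimum, 37.6% had an interval below 1 and 35.3% above 1. *Hoxc10* had the lowest ratio of the family, with 273 normalized counts in Tip55+/+ and 101 in Tip55Δ/Δ embryos, a ratio of 0.370 (0.322 to 0.424). Of 2364 genes within 2-fold of its level, 1.69% had a ratio at least as far from 1. *Hoxa10* had 274 and 238 (0.868, 0.784 to 0.960), and *Hoxd10* 53.7 and 37.9 (0.706, 0.546 to 0.900). The interval of *Hoxc10* did not overlap those of *Hoxa10* and *Hoxd10*.

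*Hoxa11*, which acts in limb, kidney and uterus, had 185 and 156 normalized counts (0.840, 0.740 to 0.951), and 35.0% of its exonic bases are shared with *Hoxa11os*. *Hoxd11* had 42.7 and 26.5 (0.621, 0.458 to 0.823). Few counts lie behind it. With 10 normalized counts added to both means its log2 ratio went from −0.69 to −0.53, within 1.5-fold. Of 1992 genes within 2-fold of its level 25.4% were at least as far from 1. Paralogue 13 closes the body axis and patterns digits and the hindgut. *Hoxd13* had 101 and 78.3 (0.774, 0.649 to 0.920), and *Hoxa13* 39.7 and 33.7 (0.849, 0.646 to 1.12). The 3 members under the minimum were not distinguishable from a ratio of 1. *Hoxc11* had 9.40 and 6.32 normalized counts (0.672, 0.343 to 1.22), *Hoxc13* 6.80 and 8.62 (1.27, 0.700 to 2.40), and *Hoxb13* 0.573 and 2.54, for which counting error allows a ratio from 0.827 to 42.9.

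**Figure D3:**
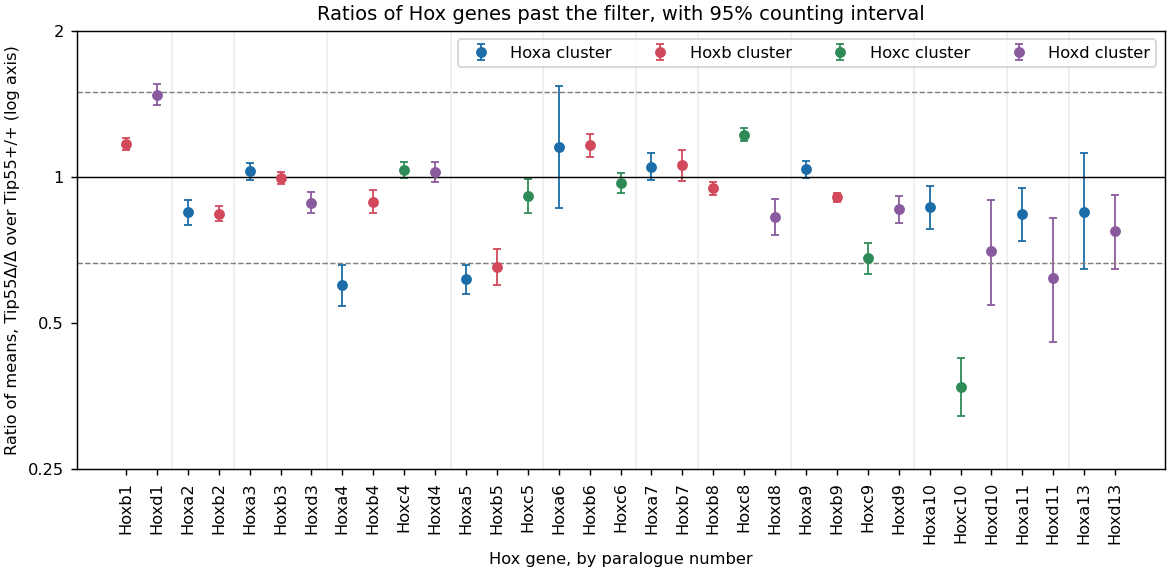
Ratio of the Tip55Δ/Δ over the Tip55+/+ mean (log axis) for the Hox genes described here that passed the minimum, ordered by paralogue number and coloured by cluster. Bars are 95% Clopper-Pearson counting intervals, and dashed lines mark 1.5-fold. *Hoxb1* and *Hoxd1* lie above 1, at 1.17 and 1.48, and *Hoxc10* is lowest at 0.370.

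Ratios did not follow position smoothly within any cluster. Over the 34 genes, Spearman's rho of the log2 ratio was −0.42 with paralogue number and 0.56 with the logarithm of the mean. These values describe the genes, which share libraries, and carry no test. The ratios ranged from 0.599 to 1.48 among paralogues 1 to 4, with a median of 1.01 over 12 genes. They ranged from 0.616 to 1.22 among paralogues 5 to 9, with a median of 0.949 over 15 genes. Among paralogues 10 to 13 they ranged from 0.370 to 0.868, with a median of 0.774 over 7 genes.

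Base composition moved with the ratios over the whole table. Spearman's rho between the log2 ratio and transcript GC content was −0.39 over the 12306 genes averaging 100 normalized counts or more, and 0.06 over the 34 Hox genes. The Hox genes had a median GC content of 53.4%, against 49.9% over all genes. With the GC trend removed, their median log2 ratio was −0.03, against 0.02 over all genes, and 30 of 34 kept the sign of their log2 ratio. The sign changed for *Hoxb3*, *Hoxb8*, *Hoxc6* and *Hoxd9*. Of these, *Hoxb8* and *Hoxd9* had counting intervals below 1, and they moved from −0.08 to 0.02 and from −0.22 to 0.06. *Hoxd3*, also with an interval below 1, moved from −0.17 to −0.01. The log2 ratio of *Hoxa4*, with a GC content of 58.0%, moved from −0.74 to −0.55 and that of *Hoxb5* from −0.61 to −0.53, so neither stayed past 1.5-fold. *Hoxa5* (−0.68), *Hoxc10* (−1.40) and *Hoxd11* (−0.77) did, and *Hoxd1* came to 0.67. The part of base composition in the Hox ratios was not tested further.

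**Figure D4:**
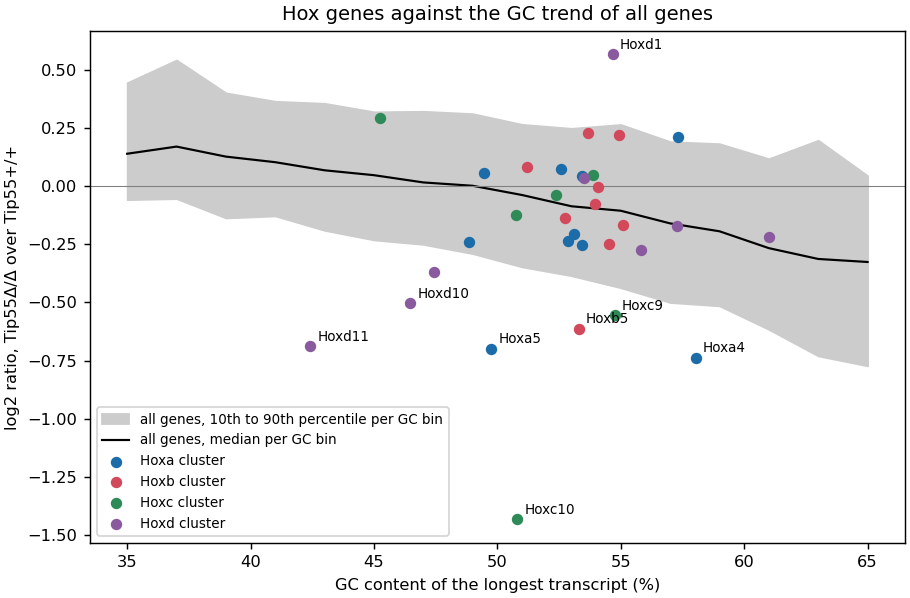
The log2 ratio of the Hox genes described here (points, coloured by cluster) against transcript GC content in percent. The grey band spans the 10th to 90th percentile of the 12306 genes averaging 100 normalized counts or more, in bins of GC content, and the line is their median. *Hoxd1* lies above the band, and the genes below it include *Hoxc10*, *Hoxd11*, *Hoxa5*, *Hoxb5* and *Hoxa4*. *Hoxd11*, at 42.7 and 26.5 normalized counts, is below the minimum of the genes that made the band.

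Genes beside the clusters were compared with the Hox genes next to them. Inside *Hoxd*, *Haglr*, a long noncoding RNA gene whose promoter faces that of *Hoxd1*, had 353 and 425 normalized counts, a ratio of 1.21 (1.11 to 1.31), below the interval of *Hoxd1*. Outside the cluster, *Lnp* had 1562 and 2047 (1.31, 1.26 to 1.36) and *Mtx2* 2868 and 2871 (1.001, 0.972 to 1.03). *Skap2*, beyond the 3′ end of *Hoxa*, had 1137 and 1413, a ratio of 1.24 with an interval above 1, and *5730457N03Rik*, antisense and beyond *Hoxa13*, had 629 and 1247 (1.98, 1.88 to 2.09). *Evx1*, a homeobox gene that the latter overlaps, had 1030 and 1277, also a ratio of 1.24 with an interval above 1. In *Hoxc*, the flanking genes *Calcoco1* (1973 and 2121, ratio 1.08) and *Smug1* (861 and 839, ratio 0.975) did not share the low ratio of *Hoxc10*. Inside *Hoxa*, *Hoxa11os* had 61.5 and 48.3 (0.786, 0.629 to 0.985), and its ratio lay within the interval of *Hoxa11*. Since 35.0% of *Hoxa11* exonic bases are shared with *Hoxa11os*, reads of the 2 genes cannot be fully told apart.

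The factors and signals that start Hox transcription were higher or near 1. Of 9 such genes, 4 were higher past 1.5-fold and none lower, with a median log2 ratio of 0.41. Among all genes past the minimum, 7.55% were higher and 5.74% lower past this fold. *Cdx1* had 1206 and 2063 normalized counts (1.71, 1.64 to 1.78) and *Cdx4* 2084 and 3422 (1.64, 1.59 to 1.69). These are caudal homeobox factors that activate Hox genes in the posterior embryo. *Wnt3a*, the tail bud WNT ligand, had 420 and 679 (1.62, 1.51 to 1.73), and *T*, the Brachyury factor of nascent mesoderm, 2350 and 3794 (1.61, 1.57 to 1.66). *Gdf11*, which drives the switch to the posterior Hox genes, had 597 and 603 (1.01, 0.945 to 1.08).

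The retinoic acid pathway was split. Of 14 genes, 2 were higher past 1.5-fold and none lower, with a median log2 ratio of −0.10. The share over all genes past the minimum was 7.55% higher and 5.74% lower. *Cyp26a1*, the enzyme that degrades retinoic acid in the tail bud, had 1044 and 1884 (1.80, 1.73 to 1.88), and the receptor gene *Rxrg* 68.3 and 152 (2.22, 1.89 to 2.62). *Aldh1a2*, which makes retinoic acid, had 3970 and 5043 (1.27, with an interval above 1), while the receptor gene *Rxra* had 3565 and 2494 (0.700, 0.679 to 0.721).

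Cofactors and chromatin regulators stayed within 1.5-fold, as most genes did. Over all genes past the minimum, 5.74% were lower and 7.55% higher past this fold. All of 9 TALE genes, 15 Polycomb genes and 8 trithorax and H3K27 demethylase genes were within it. Their median log2 ratios were −0.06, −0.04 and −0.18. *Kdm6b*, an H3K27 demethylase, had the lowest ratio of the 3 lists, with 8909 and 6295 normalized counts (0.707, 0.693 to 0.720), and *Kmt2b*, a histone methyltransferase, had 7110 and 5348 (0.752, 0.737 to 0.768). Their GC contents are 59.6% and 59.1%. With the GC trend removed their log2 ratios moved from −0.50 to −0.27 and from −0.41 to −0.19. The lowest of the 3 lists was then *Pknox1*, a TALE gene, at −0.36. Of 12 other homeobox genes of the body axis, 9 passed the minimum, 1 was lower past 1.5-fold and none higher. This was *En2*, a midbrain and hindbrain gene with 481 and 256 (0.532, 0.487 to 0.582).

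Markers of the cells that carry posterior Hox expression did not all lie on the same side as the posterior Hox genes. The tail bud and caudal epiblast list had 5 of 8 genes higher past 1.5-fold and none lower (*T*, *Tbx6*, *Wnt3a*, *Msgn1* and *Cdx4*, of which 3 are also in the list of upstream factors), and its summed level was 10741 in Tip55+/+ and 16037 in Tip55Δ/Δ embryos. *Hoxd13* (0.774, 0.649 to 0.920) and *Hoxd11* (0.621, 0.458 to 0.823) were below 1 in the same libraries, and the interval of *Hoxa13* held 1 (0.646 to 1.12). Few counts lie behind *Hoxd11*, and 25.4% of genes within 2-fold of its level were at least as far from 1. The lateral plate and limb field list had 2 of 8 higher (*Tbx4* and *Fgf10*) and 1 lower, *Pitx1*, a hindlimb gene with 1741 and 959 normalized counts (0.551, 0.526 to 0.577), beside a ratio of 0.370 for *Hoxc10*. With the GC trend removed the log2 ratio of *Pitx1*, whose GC content is 65.8%, moved from −0.86 to −0.42, within 1.5-fold, while that of *Hoxc10* was −1.40. The summed level of this list was 13737 and 15007 normalized counts. Beside the counts of both lists, 7.55% of all genes past the minimum were higher and 5.74% lower past 1.5-fold. The part of these cell types in the Hox ratios was not tested.

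Uterine tissue could also carry Hox transcripts, since *Hoxa10* and *Hoxa11* act in the uterine stroma. Of 10 markers of maternal decidua and uterine natural killer cells, 8 passed the minimum, of which 6 were higher and 1 lower past 1.5-fold. *Prl8a2*, a prolactin family gene of the decidua, had 503 normalized counts in Tip55+/+ and 27.6 in Tip55Δ/Δ embryos (0.0548, 0.0428 to 0.0689). The natural killer cell genes *Gzmf* (1.65 and 24.98 normalized counts) and *Gzmg* (1.31 and 19.9) were on the other side, as were *Gzmd*, *Gzme*, *Prf1* and *Pgr*. Of these, all but *Pgr* passed the minimum only through their Tip55Δ/Δ means. At their low Tip55+/+ means they could be counted only as higher, so the count of higher genes was largely set by the minimum. The summed level of the list was 1946 in Tip55+/+ and 1638 in Tip55Δ/Δ embryos. Most of this sum was *Cryab*, with 1326 and 1371 normalized counts (1.03, 0.990 to 1.08), so the sum says little about the other markers. *Prl3c1* was at 2.01 and 0.409, and *Gzmd* was at 0 in Tip55+/+. The part of maternal tissue in the ratios of *Hoxa10*, *Hoxa11*, *Hoxc10* and *Hoxd10* was not tested.

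**Figure D5:**
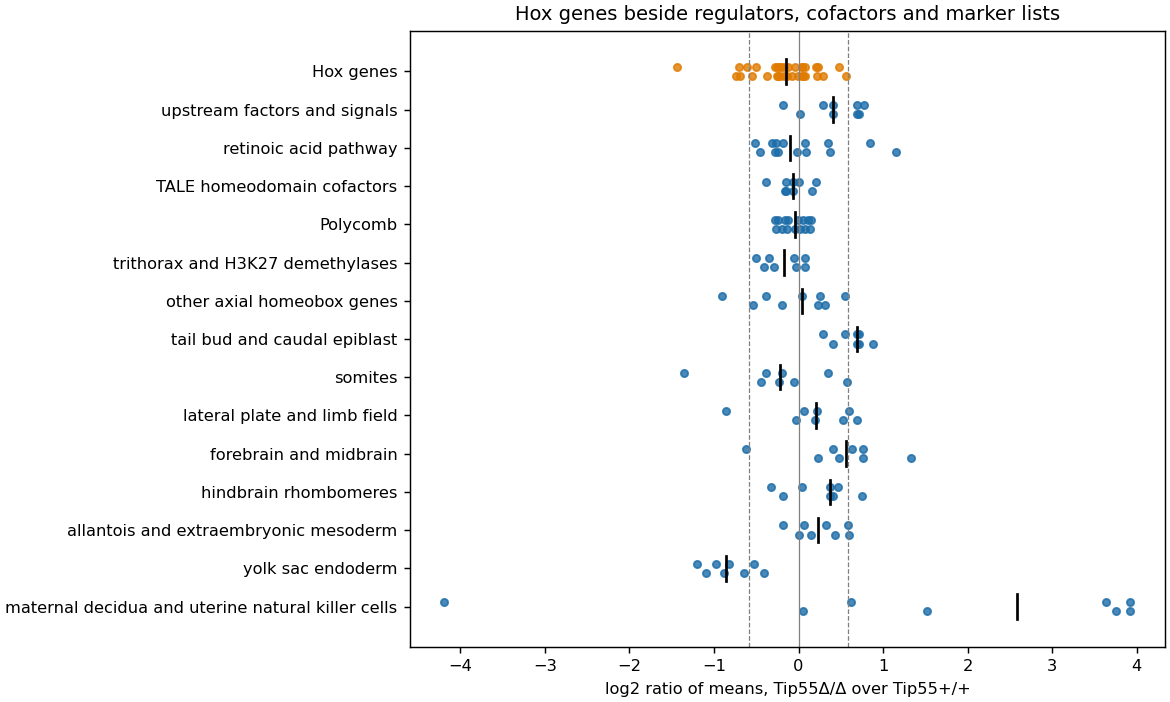
The log2 ratio of each gene past the minimum of 10 normalized counts, by list, with the 34 Hox genes in orange, black bars at each list's median and dashed lines at 1.5-fold. A mean of 3 summed counts or fewer is drawn at that floor. The Hox median is −0.15, and those of the upstream factors and the tail bud markers are 0.41 and 0.69.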

How the data were processed

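RNA was isolated from whole FVB/N embryos at E8.5, 3 libraries of Tip55+/+ and 3 of Tip55Δ/Δ. The study's authors enriched for mRNA, sequenced unstranded libraries in the BGI-seq format, used RSEM on the mm10 genome to quantify the reads and EBSeq to compare genotypes. Versions are not given in the sources used here, and the submitters' processing notes name only RSEM and mm10.

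The single deposited table lists 20280 genes, each with EBSeq's posterior probabilities of equal and of differential expression and with the authors' deposited ratio values of the genotype means, once plain and once as EBSeq's posterior fold. Both ratios were used only to solve for the 2 means: the plain ratio adds 0.01 to each mean, and the posterior ratio adds a constant found as 0.514 from 224 genes at 0 in a genotype. No deposited ratio is printed, and the posterior probabilities were not used. The recovered means are in EBSeq's normalized counts, averaged by the authors over the 3 libraries of a genotype. Of the 20280 rows, 8 with a rounding error over 5% and those of 2 symbols listed more than once were left out, which leaves 20268.

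The lowest recovered means fall on 3 steps per genotype, the worth of a single count in each library. They give EBSeq size factors of 0.887, 1.16 and 1.33 for Tip55+/+ and of 0.814, 0.914 and 0.999 for Tip55Δ/Δ, without saying which replicate is which, and an estimated 43602987 to 65553430 counts per Tip55+/+ library and 38443986 to 47159901 per Tip55Δ/Δ library. Each ratio of recovered means has a 95% Clopper-Pearson interval, computed on counts summed within a genotype. RNA-seq counts without molecular identifiers are not independent molecules, so these intervals cover counting error only. A gene at 3 summed counts or fewer (0.886 normalized counts in Tip55+/+, 1.10 in Tip55Δ/Δ) was taken as at the floor.

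Symbols were matched to GENCODE vM21 on GRCm38 (19996 genes, 706 of them by an older symbol) for coordinates, transcript length and GC content. Genes averaging 10 normalized counts or more in either genotype (15912) were compared with a 1.5-fold threshold. A lowess trend (span 0.3) of log2 ratio on GC content was drawn over the 12306 genes averaging 100 or more. Alternatives were a fold of 2 or 1.3, centring on the median gene, removal of the GC trend, 10 normalized counts added, other minimum means, each cluster left out, and the length of all exons. The recovery was tested on simulated data. Some genes are not reported here, though they remain in counts and medians. Named genes are the other Hox genes, the genes past 1.5-fold in each list or those that touch a result, the nearest neighbours of each cluster and Kat5. The members, lists and alternatives were chosen with earlier results of these data known. Computations ran in Python 3.11.15: tables with pandas 2.3.3 and numpy 2.4.6, intervals with scipy 1.17.1, the lowess curve with statsmodels 0.14.6, and plots with matplotlib 3.10.9.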

Additional observations from a re-analysis of the deposited data

How the results depend on the processing

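No paired analysis was possible because the table gives 1 mean per genotype and no value per library, and for the same reason leaving out each replicate was not run. Past 1.5-fold, 5 Hox genes were lower and 0 higher in Tip55Δ/Δ embryos. The counts that follow are of Hox genes only, and no share over all genes is given for these alternatives. With a fold of 2, 1 was lower (*Hoxc10*), and with the GC trend removed 3 were lower. With 10 normalized counts added 4 were lower, as *Hoxd11* no longer passed 1.5-fold, and with a minimum of 100 normalized counts, which *Hoxd11* does not reach, 4 were lower. With a fold of 1.3, 7 were lower. Of the 34, the number higher was 2 with a fold of 1.3, 1 with ratios centred on the median gene (*Hoxd1*) and 1 with the GC trend removed (*Hoxd1*). With no filter on low values, 1 of all 37 members was higher (*Hoxb13*, whose counting interval holds 1). The median log2 ratio of −0.15 became −0.0324 with the GC trend removed. Leaving out each cluster in turn gave medians from −0.20 to −0.10. Of the 34 log2 ratios, 17 moved beyond counting error when the GC trend was removed and none did when ratios were centred or 10 normalized counts were added, although the latter ended the call of *Hoxd11*. The cause of each change was not tested beyond the setting itself. Depth limits the members under 10 normalized counts, whose intervals all hold 1, and the lack of values per library limits every ratio.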

Other observations

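Tissues outside the reach of most Hox genes were also compared. Of 8 forebrain and midbrain markers, which lie in front of Hox expression, 4 were higher past 1.5-fold in Tip55Δ/Δ embryos (*Six3*, *Hesx1*, *Rax* and *Fezf1*). *Six3*, an anterior neural factor, had 1181 normalized counts in Tip55+/+ and 2001 in Tip55Δ/Δ embryos (ratio 1.69, interval 1.63 to 1.77). The median log2 ratio of this list was 0.56. Past the same fold, 7.55% of all genes past the minimum were higher and 5.74% lower.

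Of 8 yolk sac endoderm markers, a tissue outside the embryo proper, 6 were lower past 1.5-fold and none higher, with a summed level of 173154 normalized counts in Tip55+/+ and 107940 in Tip55Δ/Δ embryos. *Afp*, the alpha-fetoprotein gene, had 30639 and 13317 (ratio 0.435, interval 0.429 to 0.440). Of 8 somite markers 1 was lower (*Uncx*, a factor of the posterior somite compartment, 304 and 119, ratio 0.391, interval 0.344 to 0.444) and none higher. Of 8 allantois and extraembryonic mesoderm markers 1 was higher (*Tbx4*, 1715 and 2591, ratio 1.51, interval 1.46 to 1.56) and none lower. Each value has counting error only and no test over libraries. Beside these counts, 5.74% of all genes past the minimum were lower and 7.55% higher past 1.5-fold.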
